A study of Mus musculus with 2 samples.

Results

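The 7 genes described here are B2m, H2-K1, H2-D1, Ifitm1, Ifitm2, Ifitm3 and Bst2, the genes of the class I antigen-presenting complex and of a set of interferon-induced membrane proteins, out of 17938 genes listed for either plate. They were picked as named genes with earlier results of these data known, all 7 are listed on both plates, and together they gave 2526 UMIs (unique molecular identifiers, each counting 1 captured transcript) in 503 single αSMA-labeled periosteal cells. Their levels were described in 3 groups of wells that were set by other genes. Rgs5+ wells had at least 1 UMI of Rgs5 and did not meet the fibrous limit given next. Rgs5 is a gene of pericytes and other mural cells of blood vessels. Fibrous-gene wells had at least 3 UMIs of the tendon and ligament genes Thbs4, Fmod and Tnmd in sum and no Rgs5. The remaining wells had neither.

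MHC class I molecules stand on almost every nucleated cell and show fragments of the cell's own proteins to CD8+ T cells. H2-K1 and H2-D1 encode the heavy chains, which bind the peptide, and B2m encodes β2-microglobulin, the small chain that every class I molecule needs to reach the cell surface. The Ifitm proteins sit in membranes and hinder the entry of enveloped viruses, and Bst2, also called tetherin, holds budding virus particles at the cell. Interferons raise the transcription of all these genes, but many tissues express them without infection, and endothelial cells are known for high class I.

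Tomato+ cells were sorted from the periosteum of pools of 2 to 3 female mice after 2 injections of tamoxifen at 75 mg/kg, which activates Cre in cells that express αSMA and labels them and their descendants through the Ai9 reporter. The 2-day and 6-week cells came from aSMACreER/Ai9/Col2.3GFP mice aged 10.3 and 14.4 weeks, after a chase of 2 and 43 days. The 13-week cells came from mice of another genotype, aSMACreER/Ai9/R26-M2rtTA/TetOP-H2B-GFPH2B, aged 20.1 weeks after a chase of 96 days, which had received doxycycline for 5 weeks. All groups carried aSMACreER and Ai9 and received tamoxifen. Each time point thus rested on a single pool, and what sets the 13-week cells apart, be it chase, age, genotype or doxycycline, cannot be told apart. One plate held the cells of the first and last time, and another those of 6 weeks, so that a difference of 6 weeks from the other times cannot be told apart from the plate.

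Of 600 wells assigned to a time point, 503 had at least 200 genes, namely 181, 189 and 133 at 2 days, 6 weeks and 13 weeks. Rgs5+ wells numbered 32, 41 and 32, fibrous-gene wells 67, 64 and 43, and wells with neither 79, 80 and 52, while 13 wells met both criteria. The wells were shallow, with a median of 727 UMIs (246 to 3928), and the total per group and time ran from 21613 to 79101 UMIs. All 10 genes of a perivascular list, Rgs5 among them, were seen in Rgs5+ wells at each time. At 13 weeks, 38 of 133 wells had a UMI of at least 1 of 12 endothelial genes, against 20 of 181 at 2 days. The same 216 well barcodes were used on both plates, but cells of different plates were in separate libraries. No wells were removed as doublets. Because 3'-end UMIs count molecules, levels were not divided by transcript length. A pooled level does not separate fewer wells with a transcript from fewer molecules per well.

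On GRCm38, B2m lies on chr2:122147686-122153083, H2-K1 on chr17:33996017-34000347 and H2-D1 on chr17:35262730-35267499, 1262382 bases away in the major histocompatibility complex. Ifitm2 (chr7:140954837-140955987), Ifitm1 (chr7:140967221-140969825) and Ifitm3 (chr7:141009586-141010770) are neighbors, and Bst2 is on chr8:71534255-71537456. All 7 are protein-coding genes. In the last 300 bases of the longest coding transcript, where these libraries read, H2-K1 shared 0.797% of its 50-base words with any other gene, and B2m, Ifitm1, Ifitm3 and Bst2 shared none. For H2-D1 the share was 17.1%, with genes such as Adsl and Kcnk4, and for Ifitm2 it was 27.5%, with 5 gene models that have no other name than Gm. The counts of H2-D1 and Ifitm2 are therefore less certain than those of the other members.

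The promoters of the class I genes are shown because B2m, H2-K1 and H2-D1 encode the chains of 1 complex and were each called higher in Rgs5+ than in fibrous-gene wells, and Ifitm3 is shown as the member called in fibrous-gene minus neither. Each line gives the 250 bases before the transcription start in the RefSeq table of GRCm38.p6, 5′ to 3′ on the strand of the gene, and capitals mark the motifs that were found. For H2-K1 the first of 2 listed starts is used.
B2m, chr2:122147437-122147686, plus strand: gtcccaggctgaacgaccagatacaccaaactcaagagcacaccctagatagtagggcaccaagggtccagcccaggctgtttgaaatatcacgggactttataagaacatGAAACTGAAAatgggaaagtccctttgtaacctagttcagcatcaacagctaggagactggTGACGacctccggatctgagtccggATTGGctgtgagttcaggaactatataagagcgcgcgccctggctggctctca
H2-K1, chr17:34000348-34000597, minus strand: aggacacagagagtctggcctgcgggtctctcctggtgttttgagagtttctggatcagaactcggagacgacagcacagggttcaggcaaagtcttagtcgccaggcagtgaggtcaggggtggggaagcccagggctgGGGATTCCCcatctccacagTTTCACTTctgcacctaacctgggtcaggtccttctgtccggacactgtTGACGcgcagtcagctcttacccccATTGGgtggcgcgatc
H2-D1, chr17:35262844-35263093, plus strand: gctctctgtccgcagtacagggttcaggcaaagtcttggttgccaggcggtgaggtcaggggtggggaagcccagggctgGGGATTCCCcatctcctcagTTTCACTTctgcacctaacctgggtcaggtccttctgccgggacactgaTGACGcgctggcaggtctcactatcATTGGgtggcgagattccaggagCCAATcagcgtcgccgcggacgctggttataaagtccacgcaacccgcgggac
Ifitm3, chr7:141010745-141010994, minus strand: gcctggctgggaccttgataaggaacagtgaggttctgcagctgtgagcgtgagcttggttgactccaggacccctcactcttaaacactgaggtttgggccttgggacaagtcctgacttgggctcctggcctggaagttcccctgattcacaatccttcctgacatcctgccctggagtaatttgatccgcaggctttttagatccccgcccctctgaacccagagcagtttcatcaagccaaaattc

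In the windows of all 7 genes, TTCNNNGAA and the 5 motifs described next were searched on both strands. TTCNNNGAA was in 7.02% of 32851 promoter windows and, among the members, only in that of Bst2. GAAANNGAA is a core of the interferon-stimulated response element and was in 7.13% of 32851 promoter windows. AANNGAAA, a looser letter pattern for interferon regulatory factors that overlaps it and was added after the sequences had been read, was in 21.3%. GGGANTCCC, an NF-κB-like pattern, was in 0.636%, TGACG in 17.8% and CCAAT in 33.8%. TGACG and CCAAT resemble the X2 and Y boxes of MHC promoters.

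B2m held GAAACTGAA 139 bases before the start. H2-K1 and H2-D1 held the looser pattern, as TTTCACTT, and the NF-κB-like pattern. In B2m, H2-K1 and H2-D1 alike, TGACG was followed by ATTGG, which reads as the other pattern on the opposite strand, with starts 25 bases apart, an arrangement found in 30 of the 32851 windows (0.0913%). This share was counted at the exact spacing of these genes, whose own windows are included, so it is a description and no test. From the NF-κB-like pattern to ATTGG, 88 of 99 bases of H2-K1 and H2-D1 were identical (88.9%). Bst2 held GAAANNGAA at 2 overlapping places and Ifitm2 held it once, whereas the windows of Ifitm1 and Ifitm3 held none of the motifs searched. A match of letters is a description of the window and not a bound site.

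Over all 503 wells, B2m was the most abundant member with 823 UMIs (18.5 per 10000 UMIs), followed by Ifitm3 with 702 (15.7 per 10000). Ifitm2 with 349, H2-D1 with 345 and H2-K1 with 250 UMIs were intermediate. Bst2 with 34 and Ifitm1 with 23 UMIs were near the limit of detection. Of the 503 wells, 449 had a UMI of at least 1 member.

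B2m was highest in the Rgs5+ wells at every time. Its pooled level there was 22.7, 38.2 and 39.5 UMIs per 10000 at 2 days, 6 weeks and 13 weeks (49, 132 and 108 UMIs). It was 15.04, 12.9 and 17.0 in wells with neither and 14.5, 16.1 and 12.6 in fibrous-gene wells. The 3 pools of Rgs5+ wells did not overlap with the 3 of either other group, although 29.5% of the B2m UMIs of the 6-week Rgs5+ wells came from a single well. How many of all genes show such an order was not computed. In edgeR's quasi-likelihood test on the 9 sums of pool and group, with the pool as a block and Benjamini-Hochberg adjustment over 1058 genes, B2m was higher in Rgs5+ wells than in wells with neither by 1.22 ± 0.26 (SE) on the log2 scale (adjusted p = 0.0034). This call held without any one of the pools. It was lost at 0.76 with no filter on low counts (edgeR adjusted p = 0.20), at 1.47 on read counts (0.13) and at 0.20 without wells with endothelial UMIs (0.82).

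H2-K1 was likewise higher in Rgs5+ wells than in wells with neither in this fit, by 1.22 ± 0.36 on the log2 scale (edgeR adjusted p = 0.028), but the pools differed. At 2 days its level was 5.09 UMIs per 10000 in Rgs5+ wells and 5.06 in wells with neither. At 6 weeks the levels were 11.01 and 2.88, and at 13 weeks 20.8 and 8.51. The ratio of the 2 groups was thus 1.01 for 2 days (95% counting interval 0.466 to 2.00), 3.82 for 6 weeks (interval 2.15 to 7.01) and 2.45 for 13 weeks (interval 1.60 to 3.76). The fibrous-gene wells were lowest at 2 days and 13 weeks, with 2.36 and 1.79 UMIs per 10000, and had 2.95 at 6 weeks. The call was lost with DESeq2, at 1.22 (adjusted p = 0.14). In edgeR it was lost at 1.01 without the 6-week pool (adjusted p = 0.10) and at 1.12 without the 13-week pool (adjusted p = 0.20). It was also lost at 0.78 with no filter on low counts (edgeR adjusted p = 0.59) and at 1.17 on read counts (0.53). The direction turned without wells with endothelial UMIs (-0.29).

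H2-D1, the other heavy chain, had 4.63, 17.7 and 13.5 UMIs per 10000 in Rgs5+ wells at the 3 times, 6.19, 8.34 and 8.73 in wells with neither, and 3.99, 7.20 and 4.61 in fibrous-gene wells. At 2 days the Rgs5+ wells lay below the wells with neither, and at 6 and 13 weeks above them. Its difference from wells with neither did not pass the test, with a log2 fold change of 0.62 ± 0.29 (edgeR adjusted p = 0.17), and 1.02 without the 2-day pool (adjusted p = 0.0496).

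**Figure D1:**
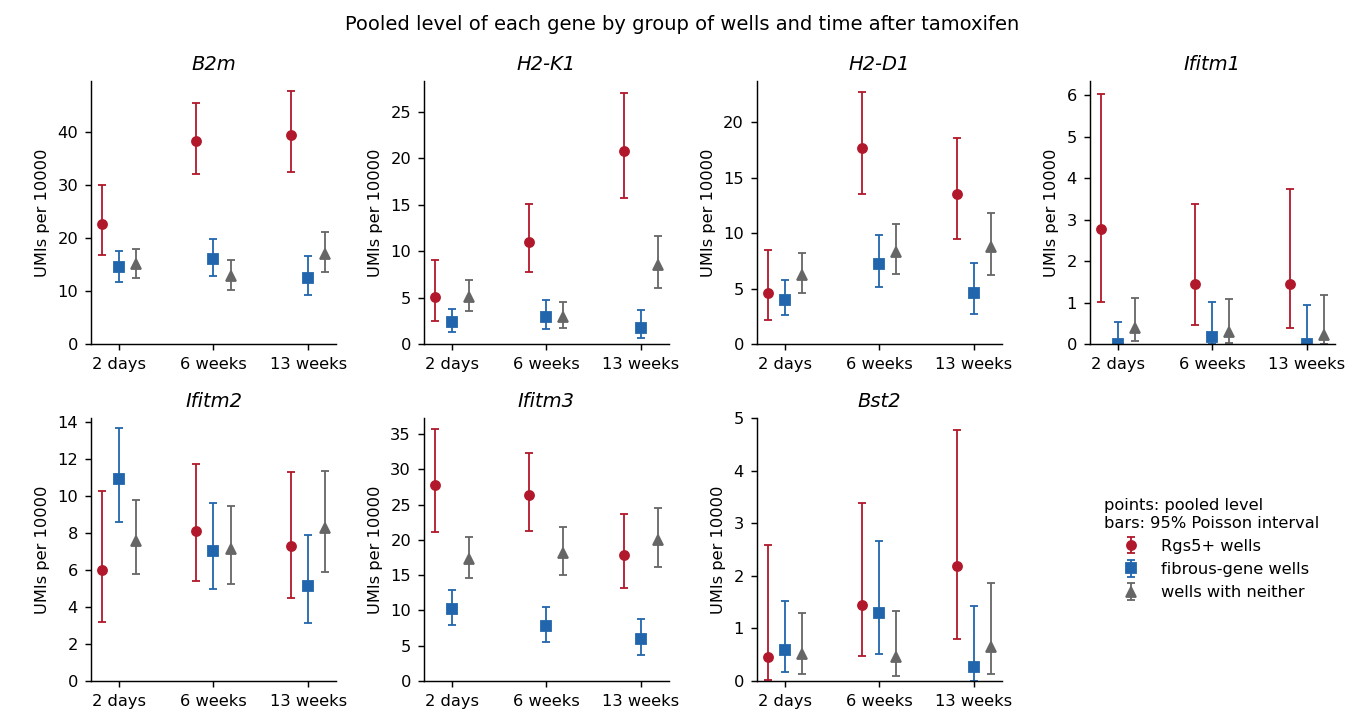
Pooled level of each gene, in UMIs per 10000, on the vertical axis by time after tamoxifen and group of wells, with 95% Poisson intervals that cover counting error only. B2m in Rgs5+ wells (22.7 to 39.5) lies above the other groups at each time, Ifitm3 is lowest in fibrous-gene wells (5.89 to 10.2), and Ifitm1 and Bst2 rest on few UMIs.

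Ifitm3 separated the fibrous-gene wells from the rest. Its level in these wells was 10.2, 7.75 and 5.89 UMIs per 10000 at 2 days, 6 weeks and 13 weeks. Wells with neither had 17.3, 18.2 and 20.01, and Rgs5+ wells had 27.8, 26.4 and 17.9. The fibrous-gene wells lay below both other groups in every pool, an order whose share among all genes was not computed. The difference from wells with neither was -0.95 ± 0.25 on the log2 scale (edgeR adjusted p = 0.012), a call lost without the 13-week pool (-0.84, adjusted p = 0.079) and on read counts (-1.44, adjusted p = 0.099). Rgs5+ wells exceeded wells with neither at 2 days and 6 weeks but not at 13 weeks, and the log2 fold change of 0.43 ± 0.25 did not pass the test (edgeR adjusted p = 0.26).

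Ifitm2, its close relative and neighbor, behaved otherwise. It had 6.01, 8.11 and 7.31 UMIs per 10000 in Rgs5+ wells, 7.59, 7.13 and 8.30 in wells with neither, and 10.9, 7.01 and 5.12 in fibrous-gene wells. The groups overlapped, and none of the 3 contrasts passed the test, with log2 fold changes of 0.0075 ± 0.29 for Rgs5+ minus neither, 0.28 ± 0.27 for fibrous-gene minus neither and -0.28 ± 0.30 for Rgs5+ minus fibrous-gene (edgeR adjusted p = 0.99, 0.50 and 0.56).

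Directly against the fibrous-gene wells, the Rgs5+ wells were higher in 4 of the 5 members tested. The log2 fold change was 1.99 ± 0.40 for H2-K1 (edgeR adjusted p = 0.0012), 1.39 ± 0.26 for Ifitm3 (adjusted p = 0.00066), 0.99 ± 0.26 for B2m (adjusted p = 0.0075) and 0.91 ± 0.30 for H2-D1 (adjusted p = 0.032). All 4 were higher in each of the 3 pools, but the test used these same sums. The share of all genes with 1 direction over the pools was not computed. For H2-K1 only 7 UMIs were counted in fibrous-gene wells at 13 weeks, and by the share of wells it was not above a measure of free RNA there, nor in either group at 2 days. Without the 13-week pool only Ifitm3 was called (edgeR adjusted p = 0.0049), with H2-K1 at 0.051 and B2m at 0.059. The H2-D1 call was also lost with DESeq2 (adjusted p = 0.13), and in edgeR with no filter on low counts (0.60), on read counts (0.66), without the 6-week pool (0.19) and without the deepest 5% of wells (0.061). The B2m call was also lost with no filter (edgeR adjusted p = 0.14) and on read counts (0.21). Without wells with endothelial UMIs H2-K1 was at 0.38 (edgeR adjusted p = 0.80), B2m at 0.042 (0.95) and H2-D1 at 0.24 (0.79). Against the background of all genes, the 4 of 5 stood beside 11.2% of genes called higher and 16.2% called lower in this contrast. In Rgs5+ minus neither, 2 of 5 members were called higher and none lower, beside 8.79% and 7.47% of all genes. In fibrous-gene minus neither, 1 of 5 was called lower and none higher, beside 6.81% and 11.9%. With plain UMI totals in place of TMM factors, the log2 fold changes of all genes shifted by -0.32 in fibrous-gene minus neither, where calls then divided into 97 higher and 177 lower in place of 126 and 72. In Rgs5+ minus fibrous-gene the shift was 0.29, and calls divided into 156 higher and 134 lower in place of 119 and 171. The members called were unchanged by this in each contrast.

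**Figure D2:**
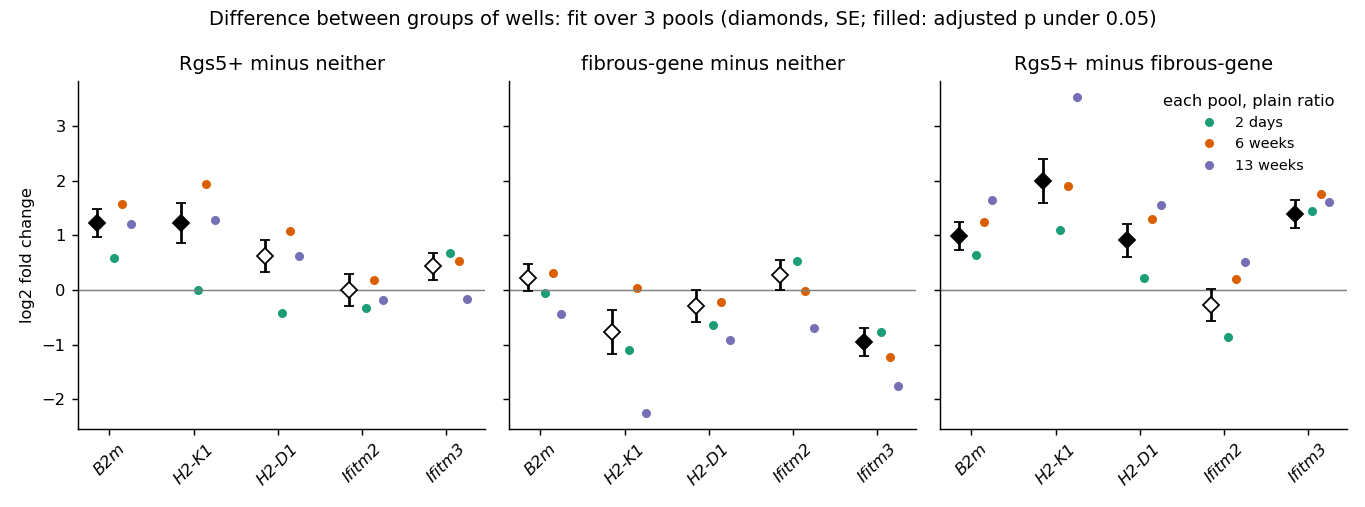
Log2 fold change between groups of wells on the vertical axis for the 5 members that passed the filter on low counts. Diamonds give the edgeR estimate over 3 pools with its SE, filled where the adjusted p is under 0.05, and dots the plain ratio in each pool. B2m and H2-K1 are called in Rgs5+ minus neither, Ifitm3 in fibrous-gene minus neither, and these 3 with H2-D1 in Rgs5+ minus fibrous-gene.

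Ifitm1 and Bst2 did not pass the filter on low counts and so were not among the 5 members tested. In alternatives that did test it, Ifitm1 was called higher in Rgs5+ than in fibrous-gene wells with no filter, on read counts and with groups set on thinned wells, and in the last also higher than in wells with neither. Bst2 was not called in any. Most Ifitm1 UMIs were in Rgs5+ wells. Where the filter applied, on read counts and thinned groups, a call higher there was thus favored by it, and these calls are a description. Ifitm1 had 6, 5 and 4 UMIs in Rgs5+ wells at the 3 times (2.78, 1.45 and 1.46 per 10000), which made up 15 of the 23 UMIs of all wells. It had 3, 2 and 1 UMIs in wells with neither and 0, 1 and 0 in fibrous-gene wells, where a count of 0 allows up to 0.443 per 10000 at 2 days and 0.769 at 13 weeks. The levels in Rgs5+ wells were above the others in all 3 pools, but on very few molecules. Bst2 had 1, 5 and 6 UMIs in Rgs5+ wells, 4, 7 and 1 in fibrous-gene wells and 4, 3 and 3 in wells with neither, and the groups overlapped.

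Endothelial genes were highest in the Rgs5+ wells, and there both they and the class I genes were lowest at 2 days. In the other groups their order over the 3 times differed from that of class I. The 12 endothelial genes gave 22.2, 36.5 and 48.2 UMIs per 10000 in Rgs5+ wells at 2 days, 6 weeks and 13 weeks, against 0.632, 3.64 and 10.4 in wells with neither and 0.148, 0.554 and 1.54 in fibrous-gene wells. In Rgs5+ wells 8 of the 12 were seen at 2 days, with Tek, Plvap, Vwf and Tie1 at 0, and all 12 at 6 and 13 weeks. Of the Rgs5+ wells, 14 of 32, 25 of 41 and 19 of 32 had at least 1 such UMI. The perivascular list, which includes the gene that defined these wells, had 101, 93.3 and 111 UMIs per 10000 in them and 148, 137 and 145 in Rgs5+ wells without an endothelial UMI. Whether a well held 1 cell or more was not tested. Hemoglobin genes were seen in few Rgs5+ wells (5, 3 and 7, with 448 UMIs in the 3 wells at 6 weeks), and immune genes gave at most 3.29 UMIs per 10000 in the 3 groups at any time. All 9 immune UMIs of the 13-week Rgs5+ wells were in 2 of the 13 wells without an endothelial UMI (10.6 per 10000 there), and their part in the class I values of those wells was not tested.

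Within the Rgs5+ wells, the class I genes together (B2m, H2-K1 and H2-D1) were higher in wells with endothelial UMIs. They had 49.5, 75.8 and 91.7 UMIs per 10000 in these wells and 15.6, 40.3 and 34.1 in Rgs5+ wells without an endothelial UMI, a ratio of 3.17 (95% counting interval 1.81 to 5.84), 1.88 (1.31 to 2.78) and 2.69 (1.81 to 4.13). Wells with neither did not show this order at each time, with 19.6, 22.8 and 38.2 UMIs per 10000 in the 5, 11 and 11 wells with endothelial UMIs and 27.1, 24.3 and 33.1 in those without. H2-D1 taken alone was not higher with endothelial UMIs at 2 days (4 UMIs, against 6 without, a ratio of 0.678), and its intervals at all 3 times included 1. H2-K1 was 0 in the 18 Rgs5+ wells without an endothelial UMI at 2 days, which allows up to 2.75 per 10000. It was 6.92 and 5.88 there at 6 and 13 weeks, against 12.4 and 27.5 in those with endothelial UMIs. The Ifitm genes together differed less, with 44.8, 37.5 and 28.1 UMIs per 10000 with and 28.4, 31.1 and 23.5 without endothelial UMIs, and all 3 counting intervals of the ratio included 1. The split was not made at equal depth, so shallow wells fall more readily among those without an endothelial UMI. These 18, 16 and 13 wells held 10900, 8676 and 8498 of the 21613, 34517 and 27373 UMIs of the 32, 41 and 32 Rgs5+ wells.

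Rgs5+ wells without an endothelial UMI were not higher in class I than wells with neither and no endothelial UMI at every time. The ratio was 0.576 (interval 0.329 to 0.947) for 2 days, 1.66 (interval 1.11 to 2.42) for 6 weeks and 1.03 (interval 0.662 to 1.56) for 13 weeks. When all wells with an endothelial UMI were left out, no member passed the test in Rgs5+ minus neither (0 of 5 by edgeR, and 0 at an unadjusted p under 0.05), B2m had a log2 fold change of 0.20 in place of 1.22 and H2-K1 one of -0.29. In Rgs5+ minus fibrous-gene wells only Ifitm3 was still called, at 1.02 ± 0.32 (edgeR adjusted p = 0.033), and in fibrous-gene minus neither it was still called at -1.04 ± 0.27 (adjusted p = 0.0086). This fit held fewer wells and tested 762 genes.

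**Figure D3:**
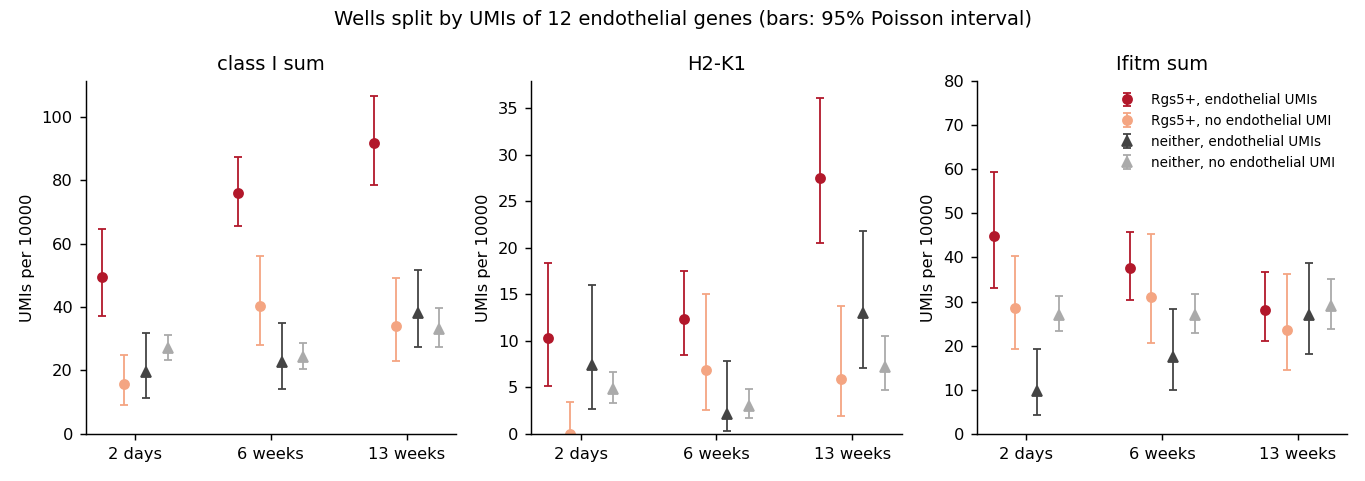
Pooled level in UMIs per 10000 on the vertical axes, by time, for the class I genes together, H2-K1 and the Ifitm genes together, in Rgs5+ wells and in wells with neither, each split by whether a UMI of 12 endothelial genes was present, with 95% Poisson intervals. The class I genes reach 91.7 in Rgs5+ wells with endothelial UMIs at 13 weeks and 34.1 in those without.

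Between 2 days and 13 weeks, on the shared plate, the class I genes were higher at the later time in the Rgs5+ wells. With 1 pool per time there is no test, and the intervals cover counting error only. B2m had 22.7 and 39.5 UMIs per 10000, a ratio of 1.74 (95% counting interval 1.23 to 2.49). H2-K1 had 5.09 and 20.8, a ratio of 4.09 (2.12 to 8.65), and H2-D1 4.63 and 13.5, a ratio of 2.92 (1.42 to 6.59). Ifitm3 was lower at 13 weeks in the same wells, with 27.8 and 17.9 (0.645, 0.433 to 0.956), and Ifitm2 was within counting error (1.21, 0.575 to 2.66). Ifitm1 had 6 and 4 UMIs (0.526, 0.109 to 2.22) and Bst2 1 and 6 (4.74, 0.575 to 218), too few for a direction. Fibroblast or progenitor genes had 88.4, 50.1 and 25.6 UMIs per 10000 in the Rgs5+ wells at the 3 times, and 113, 87.6 and 32.9 in those without an endothelial UMI, and their part in the ratios was not tested.

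The fibrous-gene wells differed. The 3 class I genes together had 20.8 UMIs per 10000 at 2 days and 19.0 at 13 weeks (ratio 0.911, 0.678 to 1.22), and none of the 3 had an interval that excluded 1. Ifitm2 had 10.9 and 5.12 (0.469, 0.271 to 0.777) and Ifitm3 10.2 and 5.89 (0.579, 0.344 to 0.939). In wells with neither, the class I genes together had 26.3 and 34.3 UMIs per 10000 (1.30, 1.05 to 1.61). There H2-K1 had 5.06 and 8.51 (1.68, 1.06 to 2.68), though by the share of wells it was not above the measure of free RNA at 13 weeks, while the intervals of B2m (1.132, 0.842 to 1.52), H2-D1 (1.41, 0.907 to 2.18), Ifitm2 (1.09) and Ifitm3 (1.16) included 1. These differences of the ratio between groups of wells were not tested. Marker lists of other cells moved in the same wells. In fibrous-gene wells the fibroblast or progenitor genes had 194 UMIs per 10000 at the earlier time and 118 at the later, and the muscle satellite genes 7.82 and 23.1 (1 of 5 genes seen at 13 weeks). In wells with neither, skeletal muscle genes had 36.5 and 67.5, perivascular genes 6.45 and 24.1, hemoglobin genes 36.2 and 95.8, and fibroblast or progenitor genes 247 and 171. Their part in the ratios was not tested. The median mitochondrial share of UMIs at 2 days and 13 weeks was 5.13% and 7.28% in fibrous-gene wells. It was 5.43% and 5.76% in wells with neither and 7.48% and 7.99% in Rgs5+ wells.

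Against all genes with at least 30 UMIs over both times, a ratio of 1.5 or more or its inverse was frequent. In Rgs5+ wells, 3 of 5 members were that much higher, beside 16.5% of 182 genes, and 1 of 5 that much lower, beside 20.3%. In fibrous-gene wells none of 4 members was higher, beside 11.6% of 456 genes, and 2 of 4 were lower, beside 29.8%. In wells with neither 1 of 5 was higher, beside 14.4% of 557 genes, and none lower, beside 21.5%. Over all wells 2 of 5 were higher (H2-K1 and H2-D1), beside 12.7% of 1491 genes, and none lower, beside 19.6%. The median log2 ratio of all genes was -0.17 in Rgs5+ and -0.25 in fibrous-gene wells, so that relative to this shift Ifitm3 was no longer lower by 1.5-fold in either Rgs5+ or fibrous-gene wells.

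The endothelial genes were also higher at 13 weeks, and the class I level was also set beside it within the split wells. In Rgs5+ wells with endothelial UMIs the ratio of the class I genes together was 1.85 (1.35 to 2.57), and in those without it was 2.19 (1.16 to 4.24) on 17 and 29 UMIs. In wells with neither the ratio was 1.94 (1.07 to 3.71) with endothelial UMIs. Without them it was 1.22 (0.966 to 1.55), an interval that included 1. Over all wells, the log2 ratio of class I was 0.62, and 0.21 when wells with endothelial UMIs were left out. The part of the endothelial genes in these ratios was not tested. Of the H2-K1 UMIs of Rgs5+ wells, all 11 at 2 days and 52 of the 57 at 13 weeks were in those wells with endothelial UMIs (ratio there 2.68, 1.38 to 5.70). At 6 weeks, on the other plate, the class I genes together had 66.9 UMIs per 10000 in Rgs5+ wells, between 32.4 at 2 days and 73.8 at 13 weeks.

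**Figure D4:**
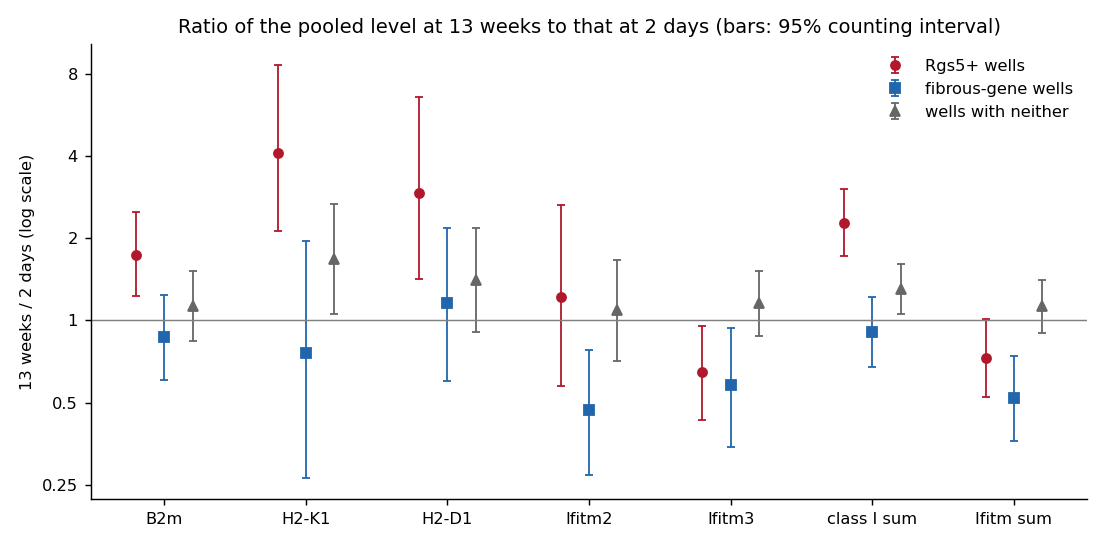
Ratio of the pooled level at 13 weeks to that at 2 days on a log2-scaled vertical axis, by gene and group of wells, with 95% counting intervals. In Rgs5+ wells B2m, H2-K1 and H2-D1 lie above 1 and Ifitm3 below it, and in fibrous-gene wells Ifitm2 (0.469) and Ifitm3 (0.579) lie below it.

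Because deeper wells show more genes, detection was compared after each well had been thinned to 300 UMIs, leaving out 20 of the 503 wells. H2-K1 was found in 2 of 30 Rgs5+ wells at 2 days (6.67%), 13 of 41 at 6 weeks (31.7%) and 11 of 28 at 13 weeks (39.3%). Clopper-Pearson intervals at 95% were 0.818 to 22.1%, 18.1 to 48.1% and 21.5 to 59.4%. It stayed between 2.33% and 13.1% in the other groups at all times. The intervals at 2 days and 13 weeks overlapped narrowly. Without thinning the shares in Rgs5+ wells were 15.6%, 43.9% and 56.2%.

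B2m was found in 36.7%, 51.2% and 50% (14 of 28) of thinned Rgs5+ wells, in 24.7%, 36.8% and 28.6% of wells with neither and in 29.2%, 37.7% and 30.2% of fibrous-gene wells, with overlapping intervals. Ifitm3 was found in 50% (15 of 30), 58.5% and 28.6% of Rgs5+ wells, 42.9%, 43.4% and 34.7% of wells with neither and 18.5%, 32.8% and 20.9% of fibrous-gene wells. For fibrous-gene wells and wells with neither the intervals were 9.92 to 30% and 31.6 to 54.6% at 2 days, and they overlapped at 6 and 13 weeks. All these intervals count wells of 1 pool and do not cover variation between mice, so they are no test of a difference between groups. H2-D1 ranged from 9.23% to 36.6% and Ifitm2 from 12.2% to 29.2% over the groups and times.

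Hemoglobin transcripts, which these cells should lack, were in 0 of 61 (interval up to 5.87%) to 14.3% of the thinned wells of the 3 groups and serve as a rough measure of free RNA. Before thinning their UMIs were concentrated, with 447 in 2 Rgs5+ wells with endothelial UMIs at 6 weeks. Another 450 were in 13 wells with neither at 13 weeks. The measure was not made for each gene, so it sets no background level for a given member. The median depth before thinning was 567.5 UMIs in Rgs5+ wells at 2 days, against 795 over all wells of that time. H2-K1 in Rgs5+ wells at 2 days (6.67%, hemoglobin in 3 of 30 wells) and Ifitm1 and Bst2 in Rgs5+ wells at each time were not above the share of wells with hemoglobin. Nor were H2-K1 in fibrous-gene wells at 2 days and 13 weeks and in wells with neither at 13 weeks, nor Ifitm2 in wells with neither at 13 weeks. At 6 and 13 weeks H2-K1 in Rgs5+ wells was above it (hemoglobin 4.88% and 14.3%).

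At 300 UMIs, 33.3%, 12.2% and 10.7% of Rgs5+ wells showed none of the 7 genes at 2 days, 6 weeks and 13 weeks, and 26.7%, 36.6% and 25% (7 of 28) showed 3 or more. Of the fibrous-gene wells 4.62%, 13.1% and 4.65% showed 3 or more, and of the wells with neither 11.7%, 8 of 76 and 14.3%. None of the 7 was seen in 33.8%, 13.1% and 37.2% of fibrous-gene wells and in 28.6%, 15.8% and 38.8% of wells with neither. The highest number of members in a thinned well was 5 of 7, in Rgs5+ wells at 6 and 13 weeks.

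**Figure D5:**
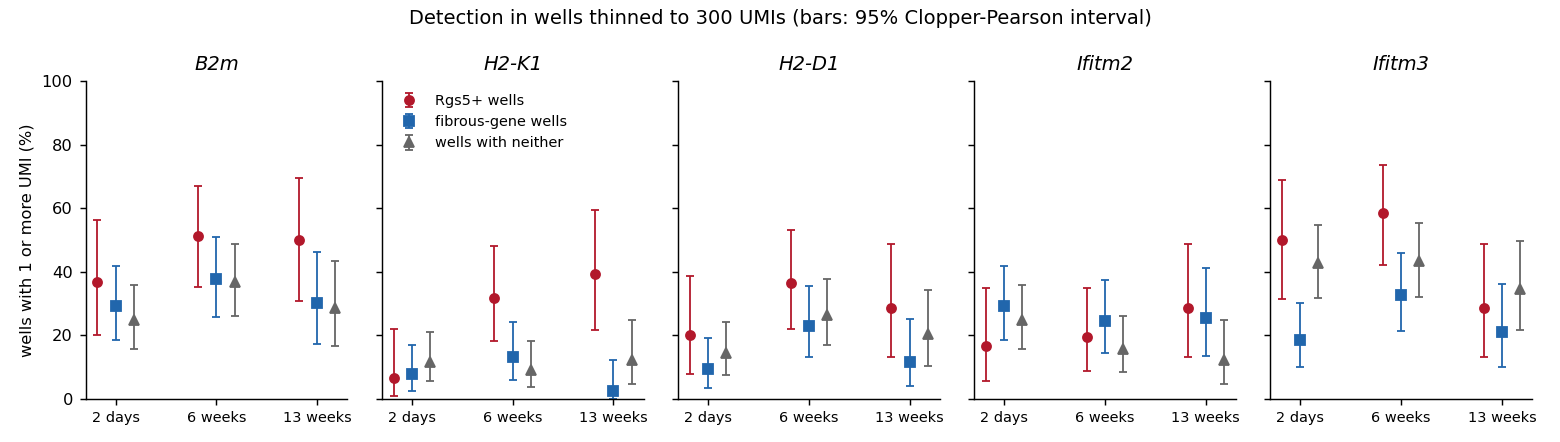
Share of wells with at least 1 UMI, in percent, after thinning to 300 UMIs, by gene, time and group of wells, with 95% Clopper-Pearson intervals. H2-K1 is found in 6.67%, 31.7% and 39.3% of Rgs5+ wells at the 3 times, and Ifitm3 is found in a smaller share of fibrous-gene wells than of wells with neither at each time.

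Other genes of antigen presentation showed which parts of the pathway were measurable. Of 14 genes of antigen processing all had UMIs and 6 were tested, with 2 called higher in Rgs5+ than in wells with neither and none lower, beside 8.79% and 7.47% of all genes. These were the immunoproteasome subunits Psmb8, with a log2 fold change of 2.29 ± 0.61 (edgeR adjusted p = 0.015), and Psmb10, with 1.70 ± 0.57 (adjusted p = 0.048). Psmb8 had 6, 15 and 12 UMIs in Rgs5+ wells and 0, 4 and 0 in fibrous-gene wells at the 3 times. Both genes are low, and they reached the filter on low counts through the Rgs5+ wells, so that a call higher there was favored by the filter and the count of 2 is a description. Against fibrous-gene wells, where Psmb10 had 2, 3 and 2 UMIs, both were called higher as well (3.62 and 2.31), with the same limit of the filter. So few UMIs there leave these sizes uncertain. Beside this, 11.2% of all genes were called higher and 16.2% lower. Calr, a chaperone of the endoplasmic reticulum that helps class I to fold, was called lower in this contrast (-1.93 ± 0.45, edgeR adjusted p = 0.0034). Calr was higher in fibrous-gene wells than in wells with neither (1.03 ± 0.34, adjusted p = 0.043). Without wells with endothelial UMIs both Calr calls were lost, at -1.17 (edgeR adjusted p = 0.25) and 0.88 (adjusted p = 0.13). Psme2, a proteasome activator subunit with 101 UMIs, was not called in any contrast (log2 fold change 0.41 ± 0.39 for Rgs5+ minus neither).

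Of 42 other interferon-induced genes 38 were listed, all 38 with UMIs, but only 3 were abundant enough to test. Ly6e, a membrane protein of the Ly6 family, and Iigp1, an interferon-γ-induced GTPase, were called higher in Rgs5+ wells than in wells with neither, with log2 fold changes of 1.40 ± 0.35 and 2.12 ± 0.64 (edgeR adjusted p = 0.010 and 0.030), beside 8.79% of all genes. Iigp1 had 5, 13 and 4 UMIs in Rgs5+ wells, 2, 5 and 4 in wells with neither and 1, 1 and 0 in fibrous-gene wells. It too reached the filter through the Rgs5+ wells, so that its call was favored by the filter and is a description. Ifi27 was not called (0.52 ± 0.49, adjusted p = 0.53). Ly6e had 5.55, 7.82 and 6.58 UMIs per 10000 in Rgs5+ wells and 1.77, 2.73 and 3.62 in wells with neither at the 3 times. Together the 38 genes had 23.1, 38.5 and 35.1 UMIs per 10000 in Rgs5+ wells, 12.01, 21.996 and 18.3 in wells with neither and 9.30, 10.7 and 3.84 in fibrous-gene wells. Psmb8, Psmb10, Ly6e and Iigp1 did not pass the filter on low counts when wells with endothelial UMIs were left out, and so were not tested there.

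The remaining parts of the pathway were sparse. Of 13 other class I genes 10 had UMIs, and 1 was tested and not called (Fcgrt, a gene outside the naming rule that was chosen after its values were seen). Of 13 receptors and signal transducers all had UMIs but none was abundant enough to test, and their sum ranged from 6.79 to 10.6 UMIs per 10000 over the groups and times. The 5 genes of MHC class II that were seen had 7 UMIs in all, and none of 5 interferon genes was listed for either plate.

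Over the 9 sums of pool and group, the genes most like each member were named from 597 genes with at least 100 UMIs, by Pearson's r of log2(UMIs per 10000 + 1) and with no test. The sums share pools and depth. For B2m they were Tm4sf1 (r = 0.93), Aplp2 (0.93) and Ly6e (0.92), for H2-K1 Sdpr (0.94), Ndufb7 (0.93) and Tm4sf1 (0.92), and for H2-D1 Ptrf (0.93), Gm13826 (0.91) and Psmb3 (0.84). Ifitm3 was most like Zfp36 and Ndufb8 (both 0.97) and Ptma (0.96), and Ifitm2 like Smdt1 (0.91), Serf2 (0.85) and Myl6 (0.83). For Ifitm1 they were Rgs5 (0.94, where 6 of the 9 sums are at 0 by the choice of wells), Ddx3x (0.92) and Tmsb4x (0.89), and for Bst2 Bsg (0.84), Aplp2 and B2m (both 0.81). Among the members themselves, r was 0.88 between B2m and H2-K1, 0.75 between B2m and H2-D1 and 0.79 between the heavy chains. It was 0.18 between Ifitm2 and Ifitm3, -0.22 between Ifitm1 and Ifitm2 and 0.76 between Ifitm1 and Ifitm3. Bst2 had 0.81 with B2m, 0.75 with H2-K1 and 0.77 with H2-D1, and both Ifitm1 and Bst2 rest on few UMIs.

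The limits of the groups were also examined. The 24 wells with exactly 1 Rgs5 UMI had 25.02 B2m and 6.50 H2-K1 UMIs per 10000, between the 14.8 and 5.16 of wells with neither and the 37.6 and 14.6 of wells with more Rgs5. Wells just under the fibrous limit, with 2 UMIs, had 20.5 Ifitm3 UMIs per 10000, the 13 wells at the limit had 16.0 and those above it 7.68. The 13 wells that met both criteria had 17.1 B2m, 6.42 H2-K1 and 18.2 Ifitm3 UMIs per 10000.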

How the data were processed

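Single sorted cells were sequenced in wells with a plate-based Drop-seq method. The authors aligned reads to mm10 with STAR (version 2.5.4a in the submitters' processing notes) and deposited counts of UMIs and of reads per gene and well, without normalization. The 168 wells assigned to no time point were not used. The list that assigns wells names the latest time differently from the sample labels, which give 13 weeks.

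The members and lists were chosen with earlier results of these data known. The genes named are the 7 members, listed pathway genes that were called or had 100 or more UMIs, and the 3 most similar genes per member. Wells with at least 200 genes were kept. UMIs were pooled per time and group, with exact Poisson intervals and conditional binomial intervals for ratios, at 95% and for counting error only. A count of 0 allows 3 counts. UMIs were summed per pool and group for edgeR 4.0.16 (R 4.3.3, quasi-likelihood test, TMM, filterByExpr, pool as block, adjusted p under 0.05), and p-values measure only the spread between these pools. DESeq2 1.42.0, other scalings, filters and well groups, read counts and leaving out wells or pools were alternatives. Wells were thinned to 300 UMIs with seed 0 for detection. On simulated sums for Rgs5+ minus neither, 156 of 170 tested genes changed 4-fold were called among 942 genes, as were 9 unchanged genes. The simulation used a single dispersion, the same profile in all groups and no difference between pools. It does not give the recovery of smaller changes in the real pools. Promoters came from RefSeq and positions from GENCODE M21.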

Additional observations from a re-analysis of the deposited data

Results flagged for a closer look

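The ratio of H2-K1 between 13 weeks and 2 days lay above 1 in Rgs5+ wells and below 1 in fibrous-gene wells, with counting intervals that did not overlap, but the interval of the fibrous-gene wells included 1. Its ratio was 4.09 (2.12 to 8.65) in Rgs5+ wells, on 11 and 57 UMIs, and 0.759 (0.264 to 1.95) in fibrous-gene wells, on 16 and 7 UMIs. By the share of wells at 300 UMIs, H2-K1 was not above the rough hemoglobin measure of free RNA in Rgs5+ wells at 2 days or in fibrous-gene wells at either time, so each ratio has at least 1 level that is not above this measure. The difference itself was not tested, since each time point is 1 pool of mice. Endothelial genes had 22.2 and 48.2 UMIs per 10000 in the same Rgs5+ wells and 0.148 and 1.54 in fibrous-gene wells, and their part in the result was not tested.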

How the results depend on the processing

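No paired analysis was possible because the 2 plates share a replicate number but no animals, and the pool is already a block in the fit between groups of wells. The time comparison has 1 pool per time, so leaving out a pool does not apply to it. The cause of each change below was not tested unless stated.

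In Rgs5+ minus neither, 2 members were called (B2m and H2-K1). DESeq2 called 1 (B2m). By edgeR, 0 were called with no filter on low counts (3 at an unadjusted p under 0.05), 0 on read counts (2) and 0 without wells with endothelial UMIs (0), and leaving out each pool gave 1 to 3. In fibrous-gene minus neither, 1 was called, against 0 on read counts (2 at an unadjusted p under 0.05) and 0 to 2 with each pool left out (0 without the 13-week pool, 1 at an unadjusted p under 0.05). In Rgs5+ minus fibrous-gene, 4 were called, against 3 with DESeq2 and without the deepest 5% of wells (H2-D1 lost), 3 with no filter and on read counts (B2m and H2-D1 lost, Ifitm1 added), 5 with groups set on thinned wells (Ifitm1 added), 1 without wells with endothelial UMIs and 1 to 4 with each pool left out.

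Reversals of log2 fold changes concerned values that did not pass the test, with 1 exception, H2-K1 in Rgs5+ minus neither, at -0.29 without wells with endothelial UMIs. In that contrast H2-D1 was at -0.16 on read counts and -0.00024 without endothelial wells. Ifitm2 was at -0.027 with plain totals, -0.45 with no filter, -0.053 to 0.16 with each pool left out, -0.038 at a minimum of 300 genes, -0.24 on read counts, -0.0052 with the fibrous limit at 5 UMIs, -0.070 with groups set on thinned wells and -0.16 without endothelial wells. Ifitm3 was at -0.045 with no filter, -0.0076 on read counts and -0.020 without endothelial wells. In fibrous-gene minus neither, B2m was at -0.098 with plain totals and -0.016 with no filter, and Ifitm2 at -0.037 with plain totals and -0.35 on read counts. In Rgs5+ minus fibrous-gene, Ifitm2 was at 0.010 with plain totals, -0.37 to 0.10 with each pool left out (0.10 without the 2-day pool) and 0.12 on read counts.

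From 2 days to 13 weeks, 2 members passed a ratio of 1.5 over all wells, against 1 on read counts, 0 without endothelial wells and 1 at a fold of 2. In Rgs5+ wells it was 4, against 2 at a fold of 2 and 1 without endothelial wells, where Ifitm3 alone reached the minimum of 30 UMIs (B2m had a ratio of 2.10 on 11 and 18 UMIs, and the class I genes together 2.19). In fibrous-gene wells it was 2, against 1 relative to the median of all genes and 1 at a fold of 2. In wells with neither it was 1, against 4 on read counts, 2 with groups set on thinned wells, 2 as a mean over wells, and 0 without endothelial wells, without the deepest 5% of wells or at a fold of 2. The log2 ratio of the Ifitm genes together on read counts was 0.22 over all wells (-0.18 on UMIs) and 0.94 in wells with neither (0.17), and that of class I over all wells was 0.21 without endothelial wells (0.62). In Rgs5+ wells, class I was detected in 89.5% at 500 UMIs at 13 weeks (75.0% at 300), and the Ifitm genes in 40.6% at 200 UMIs at 2 days (63.3%), 80% at 500 and 80.5% unthinned at 6 weeks (65.9%) and 75.0% unthinned at 13 weeks (53.6%).

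Counts over all genes also moved by more than 1.5 times. In Rgs5+ minus neither, 93 genes were higher, against 54 with DESeq2, 59 with no filter, 45 to 51 with each pool left out, 18 on read counts and 19 without endothelial wells, and 79 were lower, against 30 with DESeq2, 143 with no filter, 23 to 45 with each pool left out, 42 at a minimum of 300 genes, 120 with Rgs5 at 2 or more UMIs and 16 without endothelial wells. In fibrous-gene minus neither, 126 were higher, against 68 with DESeq2, 82 without the 2-day pool, 68 without the 13-week pool and 40 on read counts, and 72 were lower, against 177 with plain totals, 37 with DESeq2, 112 with no filter, 39 to 46 with each pool left out, 111 at a minimum of 100 genes and 33 on read counts. In Rgs5+ minus fibrous-gene, 119 were higher, against 64 to 71 with each pool left out, 68 on read counts and 43 without endothelial wells, and 171 were lower, against 104 with DESeq2, 112 without the 6-week pool, 94 without the 13-week pool and 71 without endothelial wells. Of the values of single members between groups of wells, 239 kept direction and side of the threshold, 23 kept direction but were no longer called, 2 became called and 21 reversed.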
